A study of Homo sapiens with 6 samples.

Results

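The start codon areas described here were those of the 1333 human genes, of 9675 in a genewise table of footprint counts, that held at least 20 start area counts summed over a library of eIF3b-bound 40S footprints and a library of unselected 40S footprints. All footprints came from HEK293T cells, an adherent line derived from human embryonic kidney, grown for 48 h at 37 °C and then fixed with 0.3% formaldehyde for 5 min in the cold. Lysates were digested with RNase I, so that ribosome-covered RNA survived, and small subunits (40S) were separated from whole ribosomes (80S). The eIF3b-bound 40S library was made from 40S subunits pulled down with a goat polyclonal antibody to eIF3b, and the 40S 1 library from 40S subunits with no antibody step. The series holds 6 samples, but the gene table covers these 2 groups with 1 library each, whose counts are called eIF3b-bound and unselected, so no difference between them has a replicate check, and no test was made. For both libraries only read 1 of the paired reads was analysed, per the labels.

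Small ribosomal subunits load near the capped 5′ end of an mRNA together with initiation factors and scan the leader (5′ UTR) until the initiator tRNA pairs with a start codon. After that pairing factors leave, the large subunit joins and the 80S ribosome elongates. The initiation factor eIF3 is a large complex on the 40S subunit that takes part in recruiting the mRNA and in scanning, and eIF3b is one of its core subunits. In 40S footprints a start area can therefore hold subunits paused at initiation, and its leader those on the way there. The counts do not tell these from other 40S subunits in the same area.

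The table splits each gene into leader, start area, coding sequence, stop area and 3′ UTR. The span of a start area in nucleotides is not given in the sources used here. Depth was similar, as the eIF3b-bound 40S library held 947733 counts and the 40S 1 library 834172. Of HEK293T markers, 4 of 7 were in the table, of which IGF2BP1 had 916 counts over the whole gene in the eIF3b-bound library against 771 in 40S 1, and LIN28B had 215 eIF3b-bound and 312 unselected. The neuronal filament genes NEFM and INA, which this line is known to express, had few counts, with NEFM at 15 in the eIF3b-bound library against 50 in 40S 1 and INA at 8 eIF3b-bound and 7 unselected. Of 11 markers of other cell types 3 were in the table, with the globin HBB and the T cell gene CD3E at 0 in both libraries and the smooth muscle actin ACTA2 at 28 eIF3b-bound and 12 unselected counts. Unselected 40S had a second library with positions but no gene counts. In it the footprint 5′ ends from 14 to 12 bases before the start codon were 3.62 times as dense as those 80 to 41 bases before it, against 3.12 times in 40S 1.

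The sequences that follow come from 5′ ends of genes whose footprints lay in the start area rather than the leader, and from 2 genes with the opposite order. Capitals mark the first ATG downstream of the annotated RefSeq transcription start (build GRCh38.p14, each stretch read on the strand of the gene). That ATG was located by its letters alone and was not checked against the annotated start codon.
H4C11: tgagactcctcttgctcgtcATGtctggcc
H2BC26: tttggagagactcagccatcATGccagacc
POLR2L: gtctgggacgcgccgccgccATGatcatcc
H2BC21: cgcgtttgtactgtgtcttaccATGcctga
H4C15: tctatcgggctccagcggtcATGtccggca
H4C14: tctatcgggctccagcggtcATGtccggca
RPLP0: tcgtggaaggttcgtgtgctagttagATGg
PHB1: gcagtATGtgtggttggggaattcatgtgg
The first 4 are a histone H4 gene at chr6:27824105-27824134 (plus strand), a histone H2B gene at chr1:228458110-228458139 (plus strand), the shared RNA polymerase subunit gene POLR2L at chr11:842499-842528 (minus strand) and a histone H2B gene at chr1:149886633-149886662 (minus strand), all with 0 leader counts in both libraries. H4C15 at chr1:149861122-149861151 (minus strand) and H4C14 at chr1:149832665-149832694 (plus strand) encode histone H4, and their printed stretches are identical, so counts may be split between such copies in a way these files cannot resolve. RPLP0, which encodes a ribosomal stalk protein, lies at chr12:120201062-120201091 (minus strand), and the prohibitin gene PHB1 at chr17:49414853-49414882 (minus strand). Both had more leader than start counts in each library. RPLP0 had 387 start and 1535 leader counts in the eIF3b-bound library, against 173 and 592 in 40S 1. PHB1 had 246 start and 465 leader counts in the eIF3b-bound library, against 68 and 71 in 40S 1. RPLP0 and PHB1 were picked after their values were seen.

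Start areas of all genes took 170203 counts in the eIF3b-bound library, 18% of its total (95% exact Clopper-Pearson interval 17.9 to 18%), and 71070 counts in 40S 1, 8.52% of its total (8.46 to 8.58%). The 2.11-fold difference in share was 1.26-fold when leader, start and coding sequence alone made up the total. These intervals, like all those given here, account for counting error alone, because each group had 1 library. No molecular identifiers marked the reads and copies of 1 molecule are not independent, so the intervals may be too narrow even for counting error. The 1333 members held 94.7% of the start counts in the eIF3b-bound library against 94.2% in 40S 1. A median member had 42 start counts in the eIF3b-bound library against 16 in 40S 1. Counts were concentrated on few genes, with 18.9% of the eIF3b-bound start counts and 18.6% of those in 40S 1 in the 15 fullest start areas. Within a member gene, the start area took a median of 22% of all footprints in the eIF3b-bound library (quartiles 11.4 and 33.7%) and 11.7% in 40S 1 (6.50 and 21.2%). The start area was the fullest of the 5 areas in 265 members in the eIF3b-bound library against 77 in 40S 1.

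Of the 15 fullest start areas, 6 belonged to genes with histone symbols and 2 to IDs with no symbol in the tables used, so their identity is not given. H4C15, a histone H4 gene at chr1:149844488-149861240 (GRCh38.p14, as for all gene coordinates here), led with 5113 start counts in the eIF3b-bound library against 3073 in 40S 1. H4C3, an intronless H4 gene at chr6:26103933-26104337, had 1874 eIF3b-bound and 1204 unselected start counts. On library totals both were higher in the eIF3b-bound library by less than the median area, at log2 ratios per library total of 0.55 (95% interval 0.49 to 0.62) and 0.45 (0.35 to 0.56). The histone H3 genes H3C14 and H3C15, near-identical copies, had 2239 and 2124 start counts in the eIF3b-bound library, against 568 and 553 in 40S 1. Their log2 ratios were 1.79 and 1.76, above the median area. H2BC12L, an H2B-like gene, had 2285 eIF3b-bound and 748 unselected start counts at a log2 ratio of 1.43, and H4C14 had 2097 eIF3b-bound and 655 unselected at 1.49.

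The glycolytic enzyme gene GAPDH at chr12:6534517-6538371 had 2730 start counts in the eIF3b-bound library against 686 in 40S 1, at a log2 ratio of 1.81 (1.69 to 1.93), the highest of the 15. The cytoplasmic actin genes ACTB, with 1634 start counts in the eIF3b-bound library against 492 in 40S 1, and ACTG1 at chr17:81509971-81512799, with 1801 eIF3b-bound and 774 unselected, had ratios of 1.55 and 1.03. The 2 actin proteins are close to identical, and whether footprints were shared between their genes is not given in the sources used here. MIF, a cytokine gene, had 1438 eIF3b-bound and 758 unselected start counts (0.74). Among ribosomal protein genes RPL8 had 1809 eIF3b-bound and 621 unselected (1.36), while RPS18 had 1201 eIF3b-bound and 815 unselected (0.37) and RPL41 had 1276 eIF3b-bound and 732 unselected (0.62). On library totals the counting interval of all 15 lay above 0, and relative to the median area it lay above for 8 and below for 6. Most of these genes had more start than leader counts, 9 in the eIF3b-bound library against 14 in 40S 1.

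**Figure D1:**
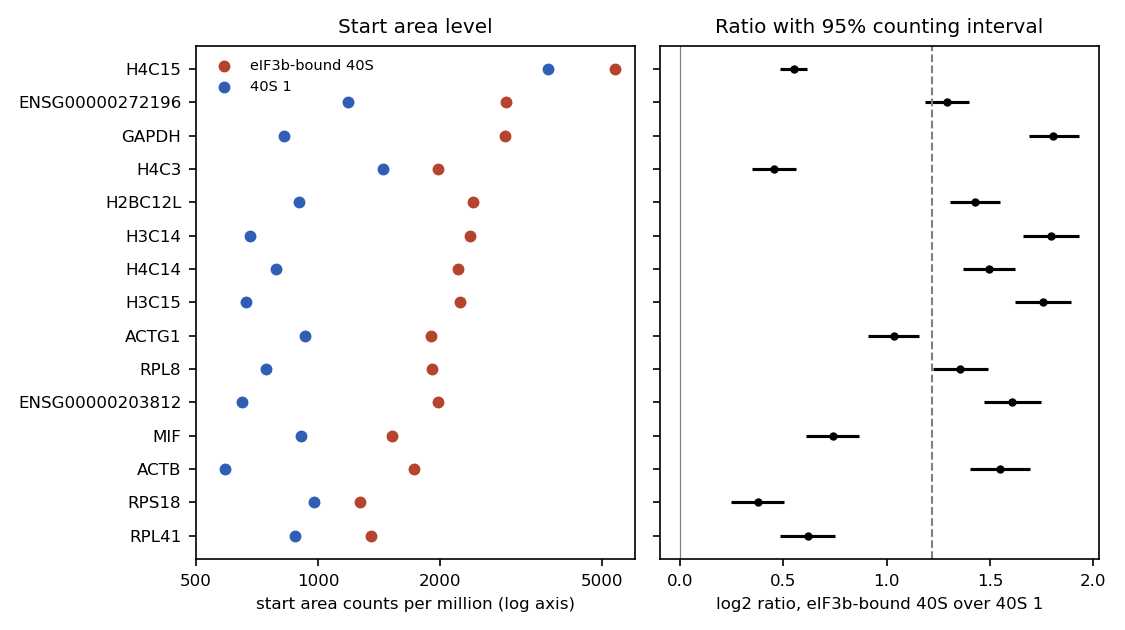
The left panel gives start area counts as CPM of the library total (log axis) of the 15 genes with the most start counts, with eIF3b-bound 40S in red and 40S 1 in blue, and the right panel their log2 ratio, where bars are exact 95% counting intervals and the dashed line is the median of all 1333 members (1.22). On these totals, though not under scalings that bring the median near 0, red lies right of blue in every gene, with ratios between 0.37 in RPS18 and 1.81 in GAPDH.

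Across the 1333 members the start area ratio, eIF3b-bound 40S over 40S 1 in CPM of the library total with 0.5 added to each count, had a median log2 of 1.22, a 2.33-fold difference, with quartiles of 0.66 and 1.83. It was positive in 1236 members (92.7%) and negative in 97. The counting interval lay above 0 in 936 members, below 0 in 23 and held 0 in 374. At least 2-fold higher levels in the eIF3b-bound library were found in 803 members (60.2%), and at least 2-fold lower ones in 23 (1.73%). Since the members were selected on these same counts, these figures describe them and test nothing. The level of the median depended on how the libraries were scaled, being 0.76 when totals left out the 10 genes fullest in 40S 1, 0.14 with start area totals and 0.01 with TMM factors. Ratios of single genes are printed on library totals and are to be read against the median of 1.22. Scaling does not move a gene's distance from that median.

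Relative to the median area, 194 members (14.6%) were at least 2-fold above and 166 (12.5%) at least 2-fold below. The counting interval excluded the median in 153 of the 194 and in 124 of the 166, and over all members it lay above the median in 239, below in 242 and held it in 852. Among leader areas with at least 20 counts the shares were close, with 14.7% of 2407 above and 12.8% below their own median. Coding sequences spread wider, with 22.4% of 2734 above and 21.4% below. The scatter of start area ratios narrowed with depth. Among the 278 members with 20 to 29 start counts 50.4% lay at least 2-fold from the median of all members, with quartiles of 0.16 and 2.14, against 8.24% of the 267 with 161 or more, with quartiles of 0.75 and 1.5.

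At the edge of the selection, the 39 genes with exactly 20 start counts had a median log2 ratio of 0.97 (range -5.54 to 5.17), and the 54 genes with exactly 19, left out, had 0.87 (-1.58 to 5.10). In 20 members 40S 1 had 0 start counts. Set against the 3 counts per library that a 0 allows, they were at least 5.87-fold to 15.0-fold higher in the eIF3b-bound library on library totals, and at least 2.52-fold to 6.42-fold above the ratio of the median area. A gene at 0 in 40S 1 became a member only with 20 or more eIF3b-bound counts, so the lowest of these bounds was fixed by the selection. The mitochondrial import gene TIMM23B, with 51 start counts in the eIF3b-bound library against 0 in 40S 1, was the fullest of these 20 members, followed by RCN2, a calcium-binding protein of the secretory pathway, with 40 eIF3b-bound and 0 unselected. TIMM23B has a close relative in TIMM23, so its counts may be shared. The eIF3b-bound library had 0 start counts in 2 members, the mitochondrially encoded MT-ATP6 described further on and TSPAN14, a tetraspanin gene with 20 counts in 40S 1 that was at least 7.57-fold lower. As 20 counts is the minimum for a member, the bound of TSPAN14 was also the smallest that the selection allows. A further 81 members had only 1 to 3 start counts in 40S 1, and their single ratios are not listed.

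**Figure D2:**
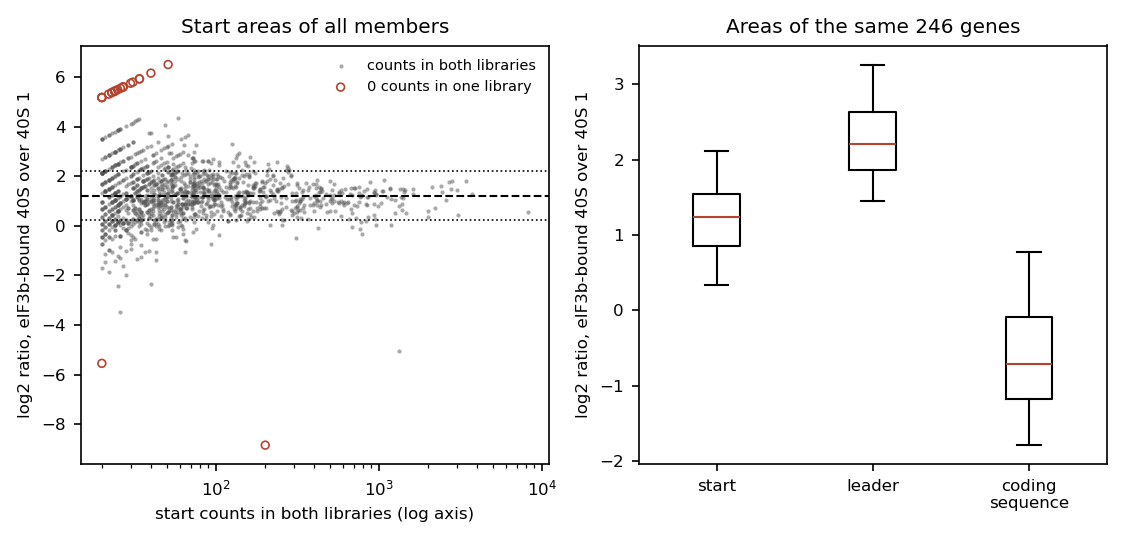
The left panel plots the log2 start area ratio of each of the 1333 members against its summed start counts (log axis), with red circles for genes at 0 in 1 library, a dashed line at the median (1.22) and dotted lines 2-fold from it, and the right panel gives the ratio of 3 areas of the 246 genes with at least 100 counts in each area (box, quartiles; line, median; whiskers, 5th and 95th percentiles). The scatter narrows to the right, MT-CO1 lies alone at -5.04 among full start areas, and the boxes step down with leader, start and coding sequence at 2.21, 1.23 and -0.71.

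In the same genes the start area stood between the leader and the coding sequence. Of 246 genes with at least 100 counts in each of the 3 areas, 226 (91.9%) had the order leader, start, coding sequence by their ratio of eIF3b-bound 40S over 40S 1. The median log2 ratios were 2.21 in leaders, 1.23 in start areas and -0.71 in coding sequences. The order held in 731 of 967 genes (75.6%) at a minimum of 20 counts and in 118 of 121 (97.5%) at 200. The interquartile range of the ratio was 0.683 in start areas, 0.767 in leaders and 1.08 in coding sequences of those 246 genes. At a minimum of 20 counts start areas spread wider than leaders, at 1.10 against 0.924. Spearman's rho between a gene's start and leader ratios moved with the minimum, from 0.06 at 20 counts (967 genes) to 0.25 at 100 (246 genes) and 0.39 at 200 (121 genes). Between start and coding sequence ratios it was 0.04, 0.07 and 0.13. These points share libraries and gene level counts, and are given as a description.

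Among the 539 members with at least 20 start counts in each library, the linker histone gene H1-2 had the highest ratio, with 206 start counts in the eIF3b-bound library against 30 in 40S 1 (log2 ratio 2.58, 2.04 to 3.20). SELENOW, a small selenoprotein gene, had 150 eIF3b-bound and 22 unselected (2.56), and the histone gene H2AC13 had 180 eIF3b-bound and 28 unselected (2.48). The RNA-binding protein genes HNRNPF and HNRNPD were also near the top, with 132 eIF3b-bound and 21 unselected counts (2.44) and 181 eIF3b-bound and 32 unselected (2.30). Others among the highest 10 were the histone gene H4C4, with 234 eIF3b-bound and 38 unselected counts, the peroxiredoxin gene PRDX5, with 135 eIF3b-bound and 22 unselected, the chromatin protein gene HMGB2, with 235 eIF3b-bound and 41 unselected, and the mitochondrial import chaperone gene TIMM8A, with 122 eIF3b-bound and 22 unselected. Each of these named genes had at least 4-fold more start counts in the eIF3b-bound library. Relative to the median area of all members their log2 ratios were smaller, from 1.04 in TIMM8A to 1.35 in H1-2. Over the 539 members alone the median log2 ratio was 1.01, lower than the 1.22 of all members. Histones are a family of near-identical genes, so the values of single copies are uncertain.

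At the low end 2 mitochondrially encoded mRNAs stood apart. These are translated by mitochondrial ribosomes, not by 40S subunits bound by eIF3. MT-CO1, a subunit of cytochrome oxidase, had 44 start counts in the eIF3b-bound library against 1288 in 40S 1 (-5.04, -5.52 to -4.62). MT-ATP6, a subunit of ATP synthase, had 0 eIF3b-bound and 201 unselected and was at least 76.1-fold lower. The lowest nuclear members had few counts, with TSPAN14 at 0 in the eIF3b-bound library as given above, TMX2, a thioredoxin-related membrane protein gene, at 2 eIF3b-bound and 24 unselected (-3.48), and the nuclear pore gene NUP43 at 4 eIF3b-bound and 21 unselected (-2.44). Among members with at least 20 start counts in each library, where MT-CO1 was the lowest, the nuclear genes were closer to 0 on library totals. EIF4A2, a helicase that unwinds leaders, had 23 eIF3b-bound and 42 unselected counts (-1.04), the proteasome subunit gene PSMB4 had 139 eIF3b-bound and 172 unselected (-0.49, -0.82 to -0.16) and RPS26, a 40S protein, had 374 eIF3b-bound and 415 unselected (-0.33, -0.54 to -0.13). Others among the lowest 10 at that minimum were SNRPB2, GTPBP4, GRINA, RCC2 and EIF3H, with log2 ratios from -0.71 in SNRPB2, which had 38 eIF3b-bound and 55 unselected start counts, to -0.35 in EIF3H, which had 49 eIF3b-bound and 55 unselected. The nuclear genes named here had fewer raw counts in the eIF3b-bound library although its total was larger. Relative to the median area of all members the log2 ratio was -2.26 in EIF4A2, -1.71 in PSMB4 and -1.55 in RPS26.

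Gene groups, chosen with earlier results of these data known, were set against the median area. By definition that area splits all members evenly into those above and those below. Of 79 cytosolic ribosomal protein genes only 32 were in the gene table, and all 32 were members. Of these, 27 lay below the median area and 5 above it, with a median log2 ratio of 0.89 against 1.22 over all members. At least 2-fold below it were 8 of the 32 (25%), against 12.5% of all members, and none was 2-fold above, against 14.6%. Fewer areas lay 2-fold from the median at higher counts. At a minimum of 50 start counts all 32 remained, with 8 at least 2-fold below and 0 above. Over all 747 areas at that minimum 50 lay below and 62 above. Over the 267 members with 161 or more start counts the median was 1.16, and 8.24% lay at least 2-fold from the median of all members. Those 8 included RPL7A, with 644 start counts in the eIF3b-bound library against 548 in 40S 1, RPL6, with 513 eIF3b-bound and 442 unselected, and RPL9, with 391 eIF3b-bound and 374 unselected, which encode large subunit proteins. RPL13, with 1235 eIF3b-bound and 388 unselected (1.48), lay above the median area. Ribosomal protein mRNAs have processed pseudogenes, so their counts may be incomplete or shared.

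The eIF3 complex itself was represented by 7 members, with a median log2 ratio of 0.74, of which 6 lay below the median area. EIF3I had 199 start counts in the eIF3b-bound library against 105 in 40S 1 (0.74), EIF3G had 91 eIF3b-bound and 50 unselected (0.67), and EIF3A, the largest subunit, had 35 eIF3b-bound and 37 unselected (-0.26). EIF3M, with 140 eIF3b-bound and 37 unselected (1.72), was the one above. EIF3B, the target of the antibody, had 70 eIF3b-bound and 27 unselected (1.17), close to the median area. Of 12 other initiation factors 8 lay below the median area and 4 above, with a median of 0.82. The scanning factor gene EIF1AX lay above it, with 105 eIF3b-bound and 24 unselected counts (1.92), and EIF4H, a cofactor of the eIF4A helicase, below it, with 204 eIF3b-bound and 116 unselected (0.63).

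Listed replication-dependent histone genes were on the other side, with 19 of 26 members above the median area, 7 below and a median of 1.49. The list lacked some histone genes described above, among them H3C14 and H3C15. At least 2-fold above it were 9 (34.6%), against 14.6% of all members, and 1 was 2-fold below. Of these 9, 2 had 0 start counts in 40S 1, as had 20 of all 194 members 2-fold above. Such genes became members through their eIF3b-bound counts alone. At a minimum of 50 start counts 4 of 19 were 2-fold above, against 62 of all 747 areas at that minimum. The list median there lay 0.15 above the median area in place of 0.27. Their ratios ran from -1.04 in H2BC7, which had 13 start counts in the eIF3b-bound library against 24 in 40S 1, to H2AC8, with 34 eIF3b-bound and 0 unselected. H2AC11, the fullest of the listed H2A genes, had 1193 eIF3b-bound and 427 unselected (1.30). Of 16 hnRNP and SR protein genes, which encode splicing and RNA-binding proteins, 9 lay above the median area and 7 below. This was close to the even split of all members, at a list median of 1.37. Among them SRSF7 had 174 eIF3b-bound and 41 unselected start counts (1.89). With 16 to 26 members a list these counts describe those genes, and nothing was tested.

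Other groups had medians near that of all members. Nuclear oxidative phosphorylation genes had 37 members at a median of 1.16, mitochondrial ribosomal proteins 35 at 1.27, cytosolic chaperones 14 at 1.24, cytoskeletal genes 15 at 1.16 and DNA replication and cell cycle genes 16 at 1.23. Endoplasmic reticulum folding and stress genes had 10 members at 1.08, immediate early and developmental transcription factors 5 at 1.24, and stress mRNAs with upstream open reading frames 4 at 1.09. Glycolytic enzymes, with 7 members at 0.96, and mRNAs with a 5′ terminal oligopyrimidine tract other than ribosomal proteins, with 5 at 0.85, were lower. Proteasome subunits lay lower, with 14 of 17 below the median area and a median of 0.97. Single genes departed from their group. Among chaperones HSP90AB1 had 544 start counts in the eIF3b-bound library against 397 in 40S 1 (0.27), and HSPA1A, one of a pair of near-identical genes, had 548 eIF3b-bound and 165 unselected (1.54). Among glycolytic genes the lactate dehydrogenase gene LDHB had 561 eIF3b-bound and 367 unselected (0.43), against the 1.81 of GAPDH given above.

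**Figure D3:**
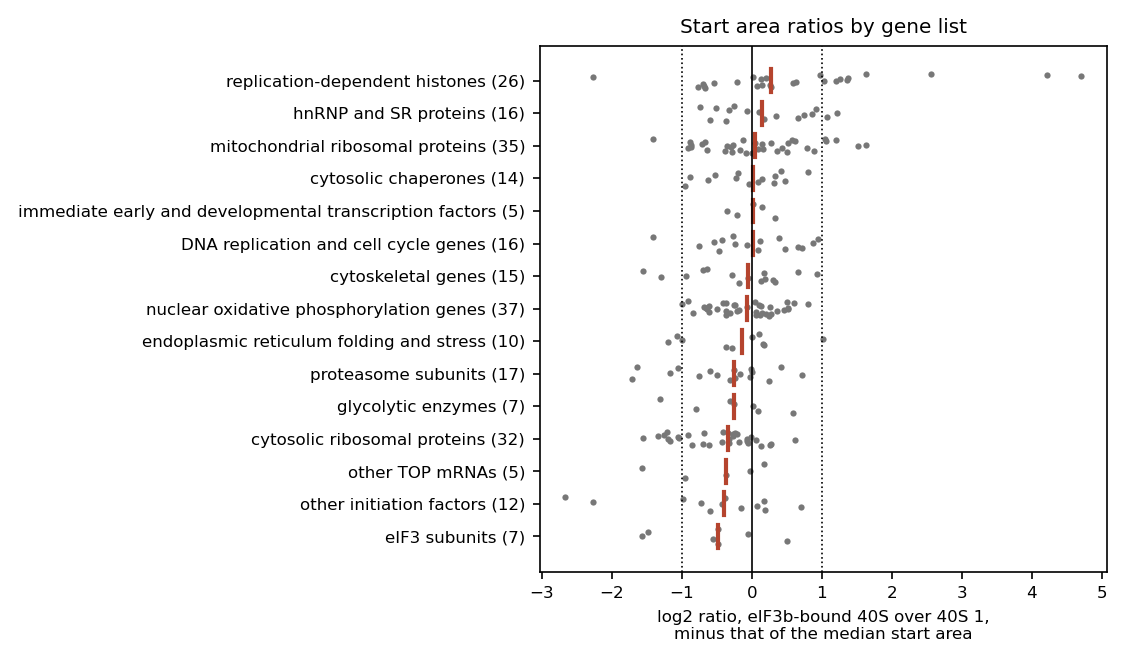
Each point is a member's log2 start area ratio, eIF3b-bound 40S over 40S 1, minus that of the median member, by gene list, with the number of members in brackets, red bars at list medians and dotted lines 2-fold from the median member. Listed replication-dependent histones have 19 of 26 members above 0 and the highest list median. At a minimum of 50 start counts that median was below that of hnRNP and SR proteins (0.15 against 0.22). Cytosolic ribosomal proteins and eIF3 subunits lie mostly left of 0, with 27 of 32 and 6 of 7 below.

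Start counts were next set against the leader counts of the same gene in the same library, a ratio that does not depend on library totals. It was not scaled to leader length, so it compares the libraries within a gene and does not rank genes by density. Among the 943 members with at least 20 start plus leader counts in each library, the median log2 ratio of start to leader was -1.31 in the eIF3b-bound library (quartiles -2.68 and 0.20) and -0.39 in 40S 1 (-1.64 and 1.22). This corresponds to 0.404 start counts per leader count in the eIF3b-bound library against 0.763 in 40S 1. The ratio was lower in the eIF3b-bound library in 748 of the 943 genes (79.3%), and the median difference over all 943 was -0.99. This difference equals a gene's start area ratio minus its leader ratio between the libraries. It thus restates, under another count minimum, the order of these areas given above. More start than leader counts were found in 255 genes in the eIF3b-bound library against 392 in 40S 1. With zeros set to the 3 counts that a 0 allows, the medians were -1.32 in the eIF3b-bound library against -0.39 in 40S 1.

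At one extreme were genes with no leader count at all. Leaders held 0 counts in 148 members in the eIF3b-bound library against 244 in 40S 1, and in 134 in both. H4C3 was the fullest, with start counts at least 625 times the 3 leader counts a 0 allows in the eIF3b-bound library against at least 401 times in 40S 1. H4C11 had 699 start counts in the eIF3b-bound library against 239 in 40S 1, H2BC26 had 569 eIF3b-bound and 268 unselected, POLR2L had 487 eIF3b-bound and 245 unselected, and H2BC21 had 427 eIF3b-bound and 262 unselected. The histone genes H3C10 and H4C8 and the nucleoplasmin family gene NPM3 followed, with 401 eIF3b-bound and 100 unselected start counts, 338 eIF3b-bound and 82 unselected, and 266 eIF3b-bound and 131 unselected. Of the 26 listed replication-dependent histone members 20 had no leader count in either library. Whether a leader was annotated for each of these genes in the authors' counting is not given in the sources used here.

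At the other extreme start areas were nearly empty beside full leaders. ATF4, a stress response transcription factor whose leader holds upstream open reading frames that control its translation, had 24 start and 2482 leader counts in the eIF3b-bound library, against 9 and 896 in 40S 1. Its log2 start to leader ratios were close, at -6.66 in the eIF3b-bound library and -6.56 for 40S 1. The initiation factor gene EIF5, whose leader also holds upstream open reading frames, had 6 start and 915 leader counts in the eIF3b-bound library, against 15 and 172 in 40S 1, which gave -7.14 for eIF3b-bound and -3.48 for unselected 40S. ODC1, the rate-limiting enzyme of polyamine synthesis, had 14 start and 703 leader counts in the eIF3b-bound library, against 9 and 147 in 40S 1. The ubiquitin-conjugating enzyme gene UBE2D2, at -6.39 eIF3b-bound and -2.61 unselected, the chromatin remodeller SMARCA5, at -5.87 eIF3b-bound and -3.34 unselected, TCEAL9, at -5.79 eIF3b-bound and -2.78 unselected, ANP32B, at -5.78 eIF3b-bound and -2.16 unselected, and the linker histone gene H1-10, at -5.75 eIF3b-bound and -3.17 unselected, made up the lowest 8. All 8 were picked for a low ratio in the eIF3b-bound library, which favours a higher ratio in 40S 1, and the gap between the libraries was smallest in ATF4.

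Between the libraries, the largest differences rested on areas at 0, and raw counts are given in place of a ratio. TOMM6, a mitochondrial import gene, had 474 start and 35 leader counts in the eIF3b-bound library, against 234 and 0 in 40S 1. EIF4A2 had 23 start and 14 leader counts in the eIF3b-bound library, against 42 and 0 in 40S 1. DRAP1, a transcriptional repressor with no area at 0, had 6 start and 43 leader counts in the eIF3b-bound library, against 22 and 4 in 40S 1, a difference of -5.06. In the opposite direction, C5orf15 had 42 start and 0 leader counts in the eIF3b-bound library, against 20 and 8 in 40S 1. LSM10, a component of the histone mRNA processing particle U7 snRNP, had 31 start and 166 leader counts in the eIF3b-bound library, against 0 and 53 in 40S 1.

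A feature the selection did not use was the sequence at the 5′ end. Of the members, 878 had exactly 1 annotated transcription start in RefSeq and a window of 50 bases after it, which was searched on the gene's strand for ATG, a feature chosen after the values were seen. The window held an ATG in 90 of the 100 genes with no leader count in either library (90%), as in the printed H4C11, H2BC26, POLR2L and H2BC21, and in 247 of 778 (31.7%) with a leader count. Over all 35116 RefSeq windows the share was 40.2%. Among genes with at least 20 start plus leader counts in each library, the 189 with an ATG had median log2 start to leader ratios of 1.45 in the eIF3b-bound library against 2.61 in 40S 1. The 416 without one had -1.64 in the eIF3b-bound library against -0.67 in 40S 1. Leaving out genes at 0 in a start or leader area lowered the medians with an ATG to 0.13 in the eIF3b-bound library against 1.44 in 40S 1 (134 genes). The 67 of these with their first ATG in bases 1 to 25 had -0.92 in the eIF3b-bound library against -0.38 in 40S 1, and the 409 genes without an ATG had -1.68 against -0.71. RPLP0 and PHB1, printed above with an ATG in the window, had more leader than start counts, so not every gene with these letters had the fuller start area. Median start area ratios between the libraries were 0.87 with an ATG and 1.23 without. A short leader leaves fewer bases to count, and leader lengths were not used here, so their part in these values was not tested.

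**Figure D4:**
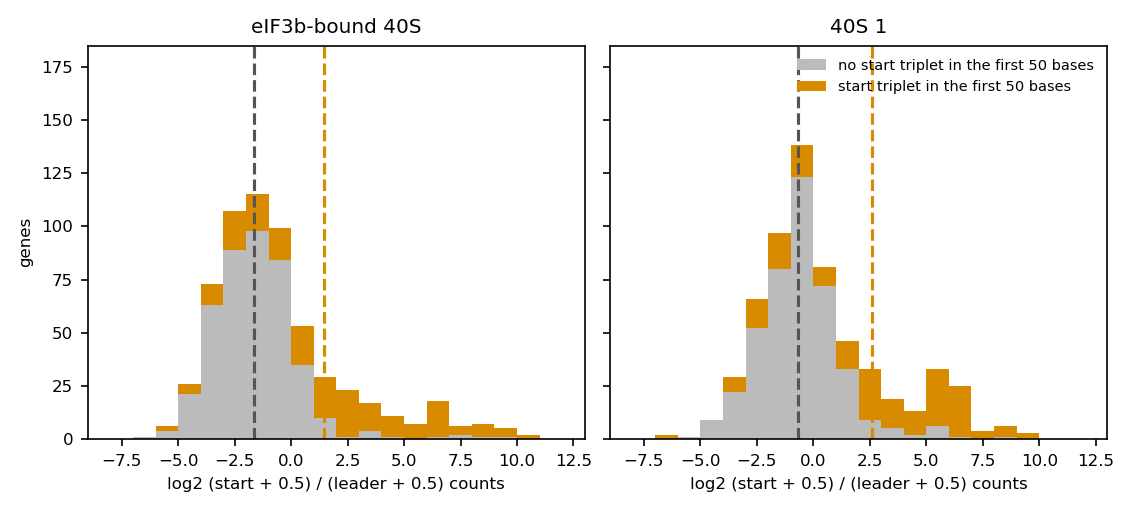
Histograms of the log2 ratio of start to leader counts (0.5 added to each), with the number of genes on the y axis, for eIF3b-bound 40S (left) and 40S 1 (right), split by whether the first 50 bases from the annotated transcription start hold ATG (orange, 189 genes) or not (grey, 416 genes, bars stacked), with dashed lines at the medians. The orange medians, 1.45 on the left and 2.61 on the right, lie above the grey ones, -1.64 and -0.67.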

How the data were processed

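Footprints of eIF3b-bound 40S subunits and of unselected 40S subunits (40S 1) were analysed, with 1 library per group. The authors deposited raw footprint counts per gene and area (leader, start, coding sequence, stop, 3′ UTR), whole numbers with no normalization, per the file headers. The submitters' processing notes name CASAVA 1.8, Bowtie 1.2.2, Bowtie2 2.2.6, TopHat2 2.1.0 and build GRCh38. The role of each tool, strand use, the handling of reads that match several genes and the extent of each area were not given in the sources used here. Whether both libraries came from separate cultures is not stated in the labels. All value columns of the gene table were mapped to a library. The deposited counts of footprint 5′ ends by position gave the start codon peak of both unselected 40S libraries.

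Counts were divided by each library's total over all areas (947733 and 834172) and compared as log2 ratios of CPM after adding 0.5. Intervals came from the exact binomial share (95%) of a gene's counts in each library. Members had at least 20 summed start counts, and called means at least 2-fold from the median member. Start to leader ratios used genes with at least 20 such counts in each library. Members and gene lists were chosen with earlier results of these data known. Genes were named as the 15 fullest, the 10 highest and lowest ratios (at least 20 counts in each library), the 8 highest and lowest start to leader ratios in the eIF3b-bound library, the 5 most extreme differences in each direction, up to 4 per list, and ATF4. RPLP0, PHB1, EIF3A, EIF3B, RPL6, RPL7A, RPL9, H2BC7, H2AC8, MT-ATP6, TSPAN14, TMX2, NUP43 and the genes at 0 in 40S 1 were chosen after their values were seen. Some genes that this rule names are not reported here. Symbols were missing for 9 members. Leader length and the bases around the start codon were not analysed here, and an ATG in RefSeq windows (GRCh38.p14) took their place, chosen after the data were seen. Calculations used Python 3.11.15, numpy 2.4.6, pandas 2.3.3 and scipy 1.17.1, with TMM factors from edgeR 4.0.16. Only the start area ratio and its interval were tried on simulated counts. Those counts were drawn independently, so they held no copies of 1 molecule. Alternatives were other library totals, TMM factors, added counts, minimum counts and gene subsets.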

Additional observations from a re-analysis of the deposited data

How the results depend on the processing

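The median log2 start area ratio was 1.22. It was 0.76 with totals that left out the 10 genes fullest in 40S 1, 0.14 with start area totals, 0.010 with TMM factors, 1.15 with 2 counts added, and 1.24 and 1.27 at minimums of 10 and 50 start counts. At those minimums, and with none, 368, 62 and 726 areas lay at least 2-fold above the median and 305, 50 and 874 below, of 1873, 747 and 3285 areas. The start share ratio of 2.11 was 1.58 without those 10 genes and 1.26 over leader, start and coding sequence alone. Start to leader in the eIF3b-bound library was -1.27 with 2 counts added, -1.63 at a minimum of 50 counts, -1.53 with at least 10 in each area and -1.48 without genes at 0. In 40S 1 the last 3 gave -0.68, -0.52 and -0.55, and the differences under the 4 settings were -0.93, -1.03, -1.12 and -1.03. Genes with an ATG in the window exceeded those without by 3.09 for eIF3b-bound 40S and 3.28 for 40S 1. In that order these were 2.45 and 2.81 with the first listed start of every gene, and 2.94 and 3.13 with 30 bases. They were 2.82 and 3.17 without the listed replication-dependent histones, a list that lacks H3C14 and H3C15, and 1.8 and 2.15 without genes at 0. No direction of these medians turned. With 1 library per group the spread between libraries is unknown, and low counts limit most single genes. Grouping by the bases around the start codon and by leader length was not run. No paired analysis was possible because the gene table holds 1 library per group.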
